A study of Mus musculus with 6 samples.

Results

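The 10 genes described here encode proteins that act in non-homologous end joining (NHEJ) or favour it. They were taken by their symbols from a table of 32285 genes: Xrcc5, Xrcc6, Prkdc, Dclre1c, Trp53bp1, Poll, Polm, Lig4, Xrcc4 and Nhej1. All 10 were found once in the table, and all 10 passed the filter on low counts that left 15104 genes for testing. They were read in 6 mRNA libraries of germline stem (GS) cells, which are mouse spermatogonia with stem cell activity that are expanded in culture on feeder fibroblasts. All 6 came from cultures begun with testes of 2 to 3 day old pups of the genotype DBA/Tg14(act-EGFP-OsbY01), a C57BL6 transgene expressing EGFP from an actin promoter and crossed into DBA/2, were grown with GDNF and FGF2, and were frozen for 6 months, thawed and lysed for RNA on the day after thawing without passage. Groups are named by the titles, with 3 Space libraries from cells kept in a freezer aboard the International Space Station and 3 Ground libraries from cells kept in a freezer on Earth. The treatment label of every library states the opposite of its title, so each direction given below would change sign if that label were right. The replicates are called biological in the design text, and the study used 3 lines for this comparison, but the labels do not say which library came from which line, so p-values measure the spread between these libraries only.

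NHEJ rejoins the ends of a DNA double-strand break without a template. The Ku ring, made of the Xrcc5 and Xrcc6 products, slides onto the ends and recruits the kinase encoded by Prkdc, the Dclre1c product trims the ends, the polymerases encoded by Poll and Polm fill gaps, and the Lig4 ligase seals the break together with the Xrcc4 and Nhej1 scaffold proteins. Trp53bp1 encodes a chromatin protein that shields ends from resection and so favours this route over homologous recombination. In the germline, errors of end joining can be passed on, for example as small deletions or insertions. The comparison asks whether cells kept in space expressed these genes at other levels than cells kept on Earth once they were thawed.

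The libraries held 19015985 to 24110916 counts, and mitochondrial transcripts took 2.51% to 11.5% of them, with the highest share in Ground-2. The 12 listed spermatogonia markers summed to 3524 to 3680 CPM (counts scaled to a common library size after TMM normalization) in Ground and 3595 to 3681 CPM in Space, with none at 0. The 16 feeder fibroblast markers summed to 989.6 to 1036 CPM in Ground and 828 to 1046 CPM in Space, none was at 0, and 15 of the 16 had a log2 fold change below 0. The 9 markers of other testis, blood and vessel cells summed to 53.3 to 66.6 CPM in Ground and 56.0 to 64.5 CPM in Space. Of these the steroidogenic gene Cyp11a1 had 0 counts in all 3 Ground libraries and 4, 1 and 3 in Space. It did not pass the filter on low counts and was not tested. The other steroidogenic gene listed, Star, went the other way. It had 4.323, 4.632 and 5.042 CPM in Ground and 3.953, 4.263 and 4.319 CPM in Space. In such bulk samples fewer cells of a type and less RNA per cell cannot be told apart. Each library was most like a library of the other group. Over the 1000 most variable genes, with log2 CPM centred per gene, Pearson's r across genes was 0.59 for Ground-1 with Space-3, 0.37 for Ground-3 with Space-1 and 0.038 for Ground-2 with Space-2, and it was negative for the other 12 of the 15 pairs.

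Before the values, the sequence upstream of 4 of these genes is given. The Ku subunit genes had the highest levels per length of exons. Dclre1c and Polm were among the 4 members with their highest value in Space-1, and the other 2, Poll and Trp53bp1, are not printed. RefSeq windows on GRCm38.p6 were found for 8 of the 10 genes, not for Prkdc and Poll, and the 250 bases before the annotated start are printed 5′ to 3′ on the strand of the gene. Capitals mark matches on either strand to the GC box GGGCGG or to the CCAAT box, spelled as its name. The core of sites for ETS factors, CCGGAAG, was searched too, as were the TATA box in the spelling TATAAA and the cyclic AMP response element TGACGTCA. No match of these 5 patterns overlapped another. The Xrcc5 window lies on the plus strand at chr1:72307171-72307420, the Xrcc6 window on the plus strand at chr15:82016119-82016368 (inside the GENCODE span of the gene, whose first start lies upstream), the Dclre1c window on the plus strand at chr2:3423881-3424130 and the Polm window on the minus strand at chr11:5838017-5838266.
Xrcc5: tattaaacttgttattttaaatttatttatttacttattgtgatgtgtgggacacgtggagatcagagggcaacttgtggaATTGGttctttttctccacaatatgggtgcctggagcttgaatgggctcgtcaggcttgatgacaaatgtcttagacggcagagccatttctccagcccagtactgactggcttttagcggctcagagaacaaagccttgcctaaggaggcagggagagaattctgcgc
Xrcc6: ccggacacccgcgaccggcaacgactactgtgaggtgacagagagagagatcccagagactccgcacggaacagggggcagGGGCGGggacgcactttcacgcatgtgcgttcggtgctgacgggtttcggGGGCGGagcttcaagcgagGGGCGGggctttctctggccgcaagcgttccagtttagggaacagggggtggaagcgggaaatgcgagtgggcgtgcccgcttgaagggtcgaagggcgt
Dclre1c: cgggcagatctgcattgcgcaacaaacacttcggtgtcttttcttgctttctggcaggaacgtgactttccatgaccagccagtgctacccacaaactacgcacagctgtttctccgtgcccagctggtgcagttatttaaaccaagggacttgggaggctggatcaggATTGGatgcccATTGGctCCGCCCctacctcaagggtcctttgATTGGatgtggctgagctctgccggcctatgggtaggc
Polm: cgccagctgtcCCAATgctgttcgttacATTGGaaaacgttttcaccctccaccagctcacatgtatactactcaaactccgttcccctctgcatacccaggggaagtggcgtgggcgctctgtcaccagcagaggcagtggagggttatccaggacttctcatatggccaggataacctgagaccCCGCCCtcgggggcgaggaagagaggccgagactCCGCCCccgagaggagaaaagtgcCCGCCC

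The Ku partners had unlike upstream windows. The Xrcc5 window was 44.8% G or C with 1 CCAAT match and no GC box, and the Xrcc6 window was 65.2% G or C with 3 GC boxes. Dclre1c had 3 CCAAT matches and 1 GC box, and Polm had 2 CCAAT matches and 3 GC boxes. The Trp53bp1 window, not printed, held 1 GC box and no CCAAT match. Over the 9 windows of the 8 genes (Lig4 has 2 starts), GC boxes were found in 7, where 32.7% of all 32851 windows in the reference table hold one, CCAAT in 3 (33.9% of all windows) and CCGGAAG in 3 (6.91%), namely in Xrcc4 and both Lig4 windows. TATAAA was in 0 of the 9 windows and in 12.4% of all, and TGACGTCA in 0 and in 1.55%. All windows, which were not limited to tested genes, had a median of 52.4% G or C. The Xrcc5 (44.8%) and Nhej1 (48.4%) windows lay below it and the other member windows at 54.4% to 70.0%. The part of base composition in the matches was not tested. These matches are letters in a window, and the deposited counts do not show which factors bind there.

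None of the 10 genes passed the test between Space and Ground. With edgeR's quasi-likelihood test 0 of the 10 passed an adjusted p of 0.05 over all genes, as did 0 of the 15104 genes tested (0%), and the adjusted p of each member was 0.9999. None of the 10 had an unadjusted p under 0.05 in edgeR's test, which 92 of all tested genes (0.609%) had. Evenly spread p-values would put a share of 0.05 of all tested genes there. The p-values of this fit thus ran high, and its SEs and intervals may be too wide. The reason was not tested. DESeq2 gave 45 genes and limma-voom 88 at this level over all genes, with 0 members in each. The 3 Space and 3 Ground values overlapped in all 10 members, while the groups did not overlap in 3.59% of all tested genes. Fold changes were above 0 in 6 members and below 0 in 4, and 48.7% of all tested genes lay above 0. The median log2 fold change of the members was 0.027, that of all tested genes -0.0020, and the median size of the change was 0.047 in the members and 0.052 in all tested genes. The summed feeder markers overlapped between the groups and 0 of the 16 passed edgeR's test at the adjusted p. In that test 3 of the 16 had an unadjusted p under 0.05, all lower in Space, against 0.609% of all tested genes. The groups did not overlap in 2 of the 16, against 3.59% of all tested genes. The feeder sum was lowest in Space-1 with 828 CPM, against 940.4 to 1046 CPM in the other 5 libraries. Most of this sum came from Fn1 and Col5a1, with 410.2 and 230.6 CPM in Space-1. In the other 5 libraries they had 376.1 to 464.5 and 237.8 to 306.6 CPM. Single markers with lower CPM differed more. Col1a2 had 13.34 CPM in Space-1 against 23.96 to 33.84 CPM, and Sparc 24.5 against 42.31 to 51.65 CPM. Fn1 and Twist1 were not lowest in Space-1. The part of these markers in the member values was not tested.

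**Figure D1:**
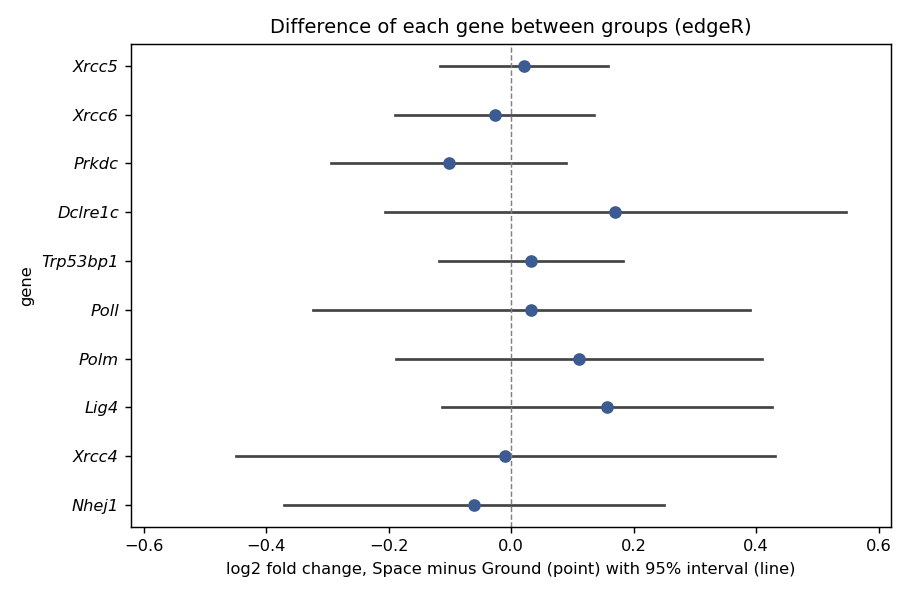
Each point is the log2 fold change of a gene (x axis, log2 units, Space minus Ground) and each line its 95% interval in the edgeR fit. All 10 lines cross 0, and they are shortest for Xrcc5 and longest for Xrcc4.

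Of the Ku genes, Xrcc5 varied less between the libraries than Xrcc6. Xrcc5 (chromosome 1, 72307421 to 72394952, GRCm38), which encodes the larger Ku subunit, had 68.0, 73.9 and 70.2 CPM in the Ground libraries, in the order of their numbers, and 70.9, 73.5 and 70.8 CPM in the Space libraries. The means of 3 libraries were 70.7 ± 2.98 CPM in Ground and 71.7 ± 1.51 CPM in Space (SD), and the log2 fold change was 0.021 (SE 0.059, 95% interval -0.12 to 0.16). All 6 values lay within 1.09-fold of each other, the narrowest span of the 10 genes. Xrcc6 (chromosome 15, 81987835 to 82040085), which encodes the smaller Ku subunit, had 122, 135 and 141 CPM in Ground and 132, 134 and 124 CPM in Space. It was lowest in Ground-1 and Space-3 and highest in Ground-3, and its log2 fold change was -0.027 (SE 0.070, interval -0.19 to 0.14). The interval of Xrcc5 allowed a change between 0.92-fold and 1.12-fold, and that of Xrcc6 between 0.88-fold and 1.10-fold.

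Prkdc, Dclre1c and Trp53bp1 act on the bound ends. Prkdc (chromosome 16, 15637866 to 15842235), the catalytic subunit of the DNA-dependent protein kinase, had 131, 144 and 154 CPM in Ground and 142, 136 and 122 CPM in Space. Ground-3 was highest and Space-3 lowest, and the 2 groups interleaved between them. Its log2 fold change of -0.10 (SE 0.083, interval -0.29 to 0.090) did not pass (edgeR adjusted p = 0.9999), and it was -0.041 without Ground-3, -0.042 without Space-3 and -0.16 without Ground-1. Dclre1c (chromosome 2, 3424131 to 3464130), the Artemis nuclease that opens hairpins and trims overhangs, had 9.39, 9.37 and 12.0 CPM in Ground and 13.5, 10.5 and 10.6 CPM in Space. The 2 highest values were in Space-1 and Ground-3, and the fold change of 0.17 on the log2 scale (SE 0.16, interval -0.21 to 0.55) did not pass (edgeR adjusted p = 0.9999). It was 0.30 without Ground-3, 0.11 without Ground-1 or Ground-2 and 0.041 without Space-1. Trp53bp1 (chromosome 2, 121193281 to 121271407) had the most counts of the 10, 5860 to 8584 per library, and reached 318, 312 and 336 CPM in Ground and 354, 313 and 322 CPM in Space. Its log2 fold change was 0.032 (SE 0.065, interval -0.12 to 0.18), and it turned to -0.022 without Space-1, the library with its highest value.

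The gap-filling polymerases shared their highest libraries. Poll (chromosome 19, 45552275 to 45560531), encoding DNA polymerase lambda, had 16.2, 16.6 and 21 CPM in Ground and 21.7, 16.3 and 17.0 CPM in Space. Ground-3 and Space-1 stood above the other 4 libraries, which lay between 16.2 and 17.0 CPM. Polm (chromosome 11, 5827860 to 5838016), encoding DNA polymerase mu, had 23.5, 22.6 and 25.8 CPM in Ground and 30.7, 23.9 and 23.0 CPM in Space, again with Space-1 and Ground-3 on top. Poll had a log2 fold change of 0.033 (SE 0.15) and Polm one of 0.11 (SE 0.13). Their intervals, -0.32 to 0.39 and -0.19 to 0.41, reach from 0.80-fold to 1.31-fold for Poll and from 0.88-fold to 1.33-fold for Polm. Without Space-1 the values were -0.11 for Poll and -0.033 for Polm, and Poll was also below 0 without Ground-1 (-0.036) or Ground-2 (-0.020).

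Of the ligation genes, Xrcc4 and Nhej1 had the lowest CPM of the 10. Lig4 (chromosome 8, 9969049 to 9977686), encoding DNA ligase IV, had 16.7, 15.1 and 18.8 CPM in Ground and 19.5, 17.3 and 19.6 CPM in Space. Its lowest library was Ground-2 and its highest Space-3, and the change of 0.16 on the log2 scale (SE 0.12, interval -0.11 to 0.43) had the smallest unadjusted p of the members, 0.216 in the edgeR test. It was 0.083 without Ground-2 and 0.25 without Ground-3. Xrcc4 (chromosome 13, 89774027 to 90089608), the scaffold that holds Lig4, had 6.42, 5.80 and 8.51 CPM in Ground and 7.04, 6.02 and 7.52 CPM in Space on 109 to 194 counts per library. Ground held both its lowest and its highest value, and the log2 fold change was -0.0099 (SE 0.19, interval -0.45 to 0.43), which spans 0.73-fold to 1.35-fold. Without Ground-3 it turned to 0.17 and without Space-2 to 0.074. Nhej1 (chromosome 1, 74967139 to 75125200), which encodes the XRCC4-like factor that bridges ends beside XRCC4, had 7.58, 7.56 and 8.20 CPM in Ground and 7.87, 6.98 and 7.52 CPM in Space. Its log2 fold change was -0.060 (SE 0.13, interval -0.37 to 0.25).

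**Figure D2:**
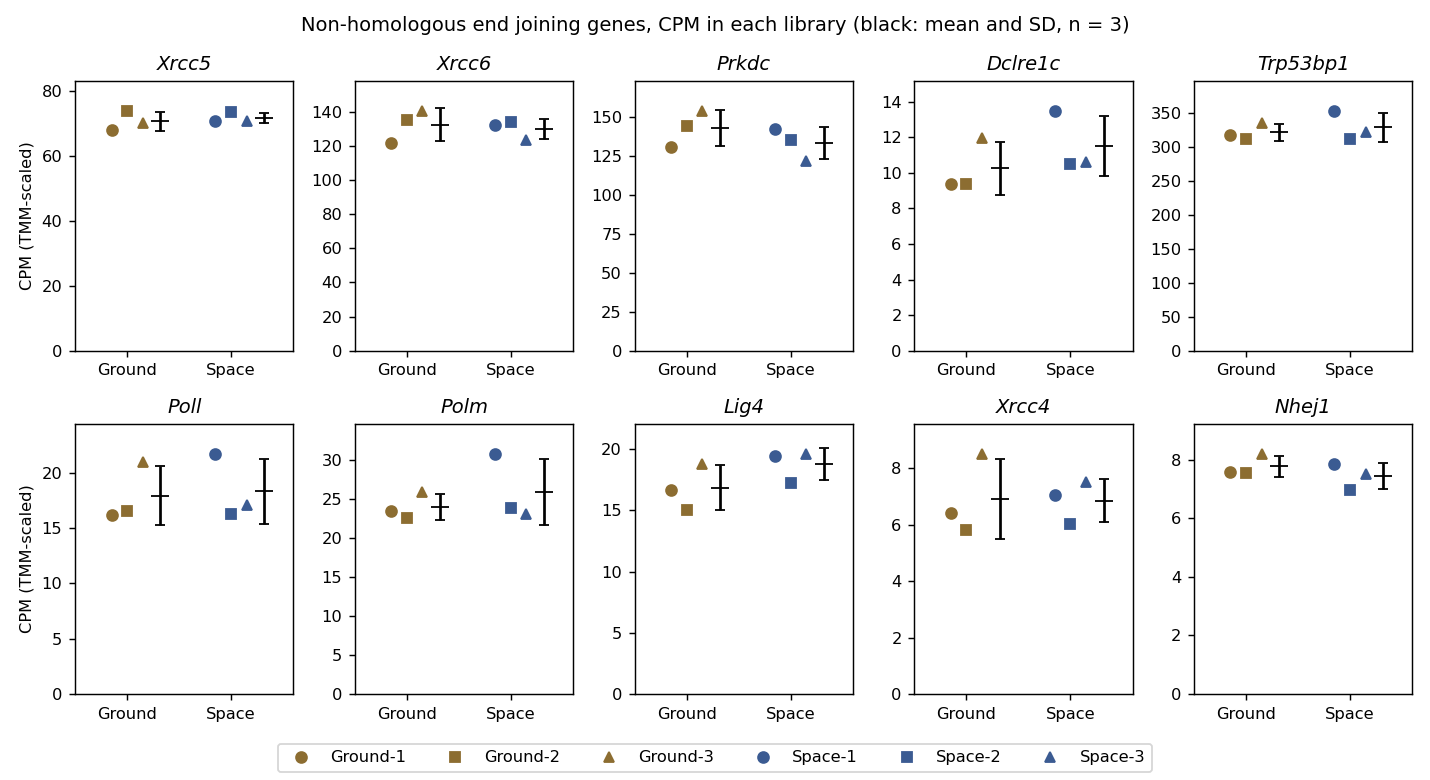
Points are the CPM of a gene in each library (y axis from 0, 1 panel per gene), with the group mean and SD of 3 libraries in black. Ground and Space values overlap in every panel, and Ground-3 and Space-1 are the upper points for Dclre1c, Poll, Polm, Trp53bp1 and Nhej1.

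To compare levels between genes, CPM were divided by the length of all exons of a gene in kb. The mean level of all 6 libraries spanned 25.1-fold, from 29.3 ± 1.61 CPM per kb for Xrcc6 to 1.17 ± 0.170 for Dclre1c (SD, n = 6). Xrcc5 followed Xrcc6 with 27.9 ± 0.855, and the ranges of this pair overlapped, Xrcc6 being higher in 5 of 6 libraries. Trp53bp1 had 23.0 ± 1.14 CPM per kb, below every Xrcc5 value, and Prkdc 10.5 ± 0.848, below every Trp53bp1 value. Poll (7.79 ± 1.08), Nhej1 (6.81 ± 0.362) and Polm (6.81 ± 0.837) followed with overlapping ranges, and the highest Poll value (9.32) lay above the lowest Prkdc value (9.26), although Prkdc was above Poll in 6 of 6 libraries. Poll was above Nhej1 in 6 of 6 libraries and Nhej1 above Polm in 4 of 6, so the order of Nhej1 and Polm was not separable. Lig4 (3.42 ± 0.343) lay below and Xrcc4 (1.63 ± 0.242) below Lig4 with no overlap, and Xrcc4 was above Dclre1c in 6 of 6 libraries although their ranges touched. Among 15098 tested genes with a known length, 87.3% had a lower level than Xrcc6, 86.4% than Xrcc5, 65.6% than Prkdc, 41.9% than Lig4 and 25.4% than Dclre1c. With the longest single transcript as length, Xrcc6 had 39.8 and Trp53bp1 33.9 CPM per kb, both then above Xrcc5, and Polm with 8.52 moved above Poll.

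**Figure D3:**
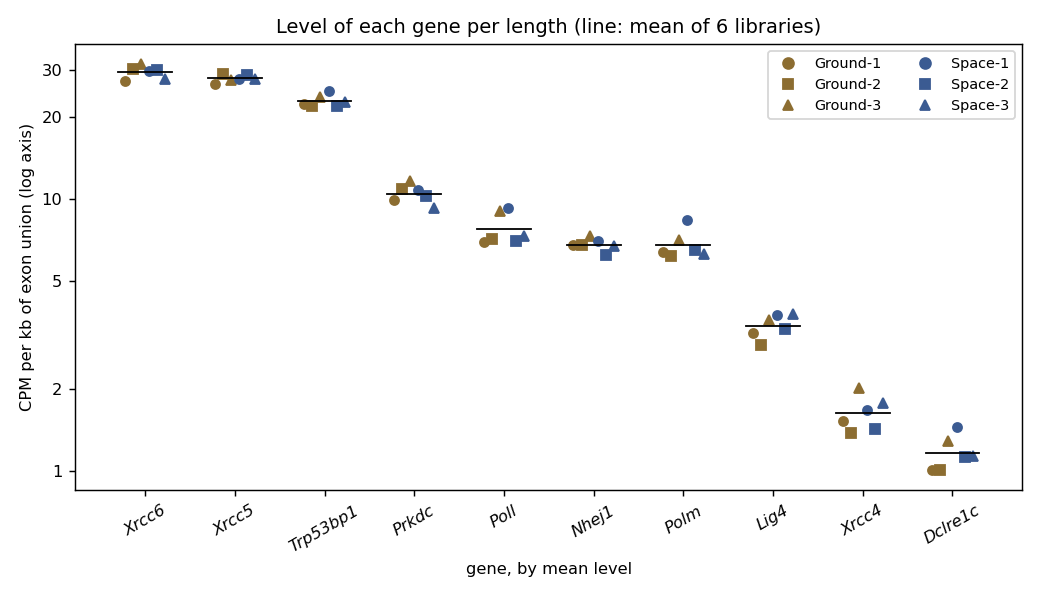
Points are CPM per kb of exon in each library (log axis), genes are ordered by their mean over 6 libraries (line). Ku genes and Trp53bp1 lie at 22.0 CPM per kb or above, and Xrcc4 and Dclre1c lie at or near the bottom with values of 1.01 to 2.02.

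The proteins of several pairs work as partners, and ratios of their transcripts within a library do not depend on library scaling. The 5 ratios of levels per length were compared between groups by an exact 2-sided permutation test, in which 3 against 3 libraries cannot reach a p below 0.1. Xrcc6 to Xrcc5 was 1.02, 1.04 and 1.14 in Ground and 1.06, 1.04 and 0.996 in Space (exact permutation p = 0.5, adjusted over 5 ratios 0.625). The mean of the 6 libraries was 1.05 with exon lengths and 1.43 with the longest transcripts, so the near-equal Ku level depends on the length used. Xrcc4 to Lig4 was 0.4744, 0.4756 and 0.5597 in Ground and 0.4464, 0.4306 and 0.4737 in Space. All 3 Space values lay below the Ground values, with Space-3 and Ground-1 nearly level, and with a difference of -0.16 on the log2 scale at the smallest possible exact permutation p of 0.1 (adjusted 0.5).
Prkdc to Dclre1c was 9.85, 10.9 and 9.09 in Ground and 7.47, 9.12 and 8.14 in Space, lower in Space on average by -0.27 on the log2 scale with overlapping groups (exact permutation p = 0.2, adjusted 0.5). Nhej1 to Xrcc4 ranged from 3.63 to 4.91 (exact permutation p = 0.7, adjusted 0.7) and Polm to Poll from 0.781 to 0.933 (exact permutation p = 0.5, adjusted 0.625). None of the 5 ratios passed.

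**Figure D4:**
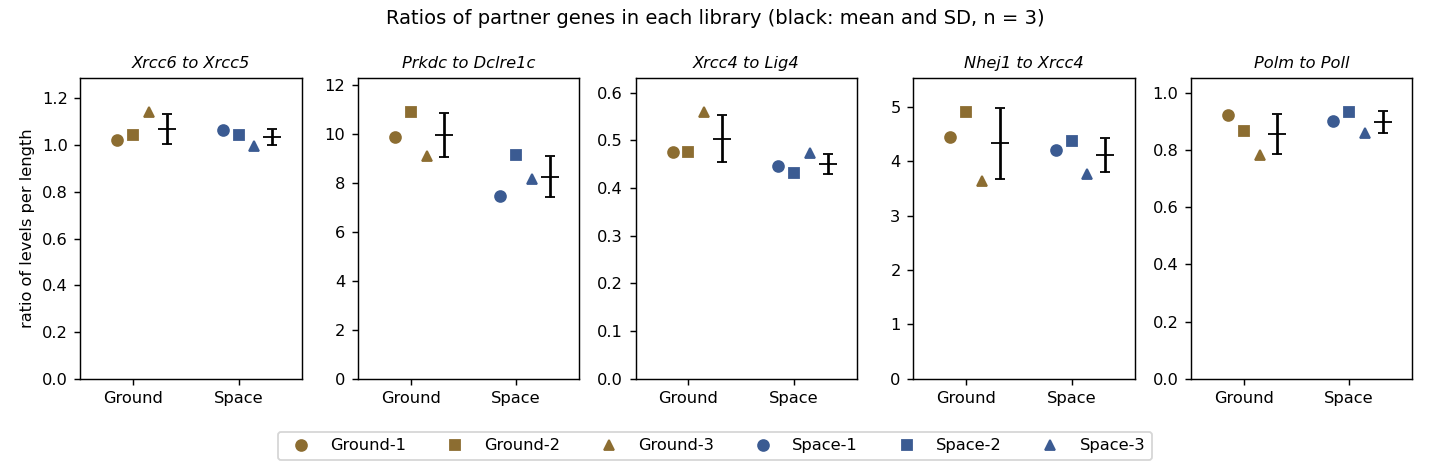
Points are the ratio of levels per length of 2 partner genes in each library (y axis from 0), with the group mean and SD of 3 libraries in black. The Xrcc6 to Xrcc5 ratio stays between 0.996 and 1.14, and the Xrcc4 to Lig4 ratio is the 1 ratio whose groups do not overlap.

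Of the 10 members, 4 were highest in Ground-3 and 4 in Space-1, where 19.3% and 19.2% of all tested genes are highest. Ground-3 and Space-1 were the 2 highest libraries for 5 of the 10 genes (Nhej1, Dclre1c, Trp53bp1, Poll and Polm), where they are the 2 highest for 23.5% of all tested genes, and neither was lowest for a member (19.1% and 20.4% of all tested genes are lowest there). Ground-2 was lowest for 5 members (Lig4, Xrcc4, Dclre1c, Trp53bp1 and Polm) and for 14.2% of all tested genes. Ground-1 was lowest for 3 members (Xrcc5, Xrcc6 and Poll) and for 16.4% of all tested genes. Space-2 and Space-3 were lowest for 1 member each. Xrcc6 and Prkdc were highest in Ground-3 and Ground-2, and Xrcc5 in Ground-2 and Space-2, which have the highest mitochondrial shares with 11.5% and 7.12% (their part in it was not tested). Ground-3 and Space-1 also had the lowest sums of the 12 spermatogonia markers, 3524 and 3595 CPM against 3664 to 3681 CPM in the other 4 libraries. These markers did not move together. Etv5 had 93.0 and 99.1 CPM in Ground-3 and Space-1 against 194.7 to 261.8 CPM in the other 4 libraries. Dazl was higher there, with 946.6 and 963.6 CPM against 782.1 to 865.4 CPM. The part of these markers in the member values was not tested. The range of log2 CPM over 6 libraries was widest for Xrcc4 (0.54) and Dclre1c (0.52) and narrowest for Xrcc5 (0.12). The median range was 0.36 for the members and 0.39 for all tested genes.

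**Figure D5:**
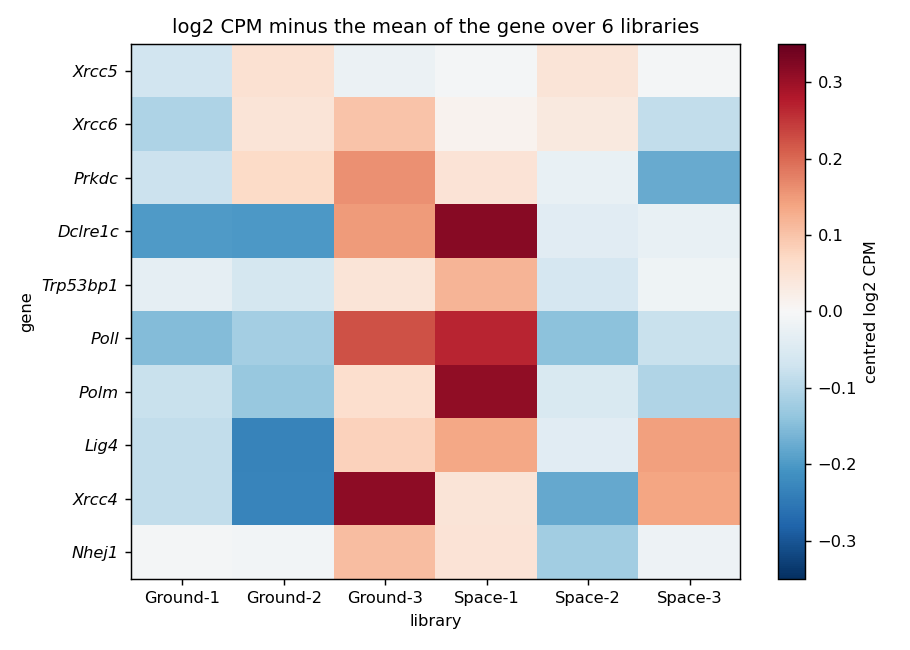
Colour shows the log2 CPM of a gene in a library minus its mean over 6 libraries (red higher, blue lower, log2 units). Dclre1c, Poll and Polm are darkest red in Space-1 at 0.27 to 0.32, Xrcc4 in Ground-3 at 0.31, and Xrcc5 stays within 0.066 of its mean.

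The spread was then set against counting error, as the coefficient of variation of CPM over the 6 libraries beside the one that counting alone would give. It was 3.07% for Xrcc5, where counting gives 2.51%, and 5.31% for Nhej1, where counting gives 7.66%. In Xrcc6 it was 5.50% against 1.85%, in Prkdc 8.09% against 1.80% and in Trp53bp1 4.97% against 1.17%. Xrcc4 had 14.8% against 8.03%, with 109 to 194 counts per library. The median over all tested genes was 10.6%.

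For the 2 members with the widest range, the tested genes with the most similar profile were found by the mean absolute difference of centred log2 CPM over the 6 libraries. For Xrcc4 they were Zik1, Tmem9 and Dele1, at 0.053, 0.057 and 0.059 log2 units, among 9510 genes with at least 10 CPM. For Dclre1c they were Trmt61a, Zfp799 and Tefm, at 0.025, 0.030 and 0.033.

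Accessory factors of the pathway were described from a list of 16 genes. Of these 15 were tested, 0 passed edgeR's test (adjusted p over all genes 0.9999 for each), 0 had an unadjusted p under 0.05, and 6 lay above and 9 below 0 with a median log2 fold change of -0.0067. The groups did not overlap in 2 of the 15, where 3.59% of all tested genes do not. Of these, Rnf8, a ubiquitin ligase acting upstream of Trp53bp1 at breaks, had 57.3, 56.9 and 56.1 CPM in Ground and 52.0, 55.5 and 51.6 CPM in Space (log2 fold change -0.098, SE 0.062), and its exons overlap another gene on the same strand, so its counts are uncertain.

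The other 13 tested accessory genes had overlapping groups. Rif1, the effector of Trp53bp1, averaged 164 ± 19.7 CPM over the Ground and 163 ± 21.7 CPM over the Space libraries (SD, n = 3 each). The shieldin subunit genes Shld1, Shld2 and Shld3 and their partner Mad2l2 had log2 fold changes of 0.044, 0.11, 0.32 (SE 0.28) and 0.10, with Shld3 resting on 23 to 51 counts per library. Paxx, which encodes a Ku-binding relative of Xrcc4, had 4.06 ± 0.513 and 4.41 ± 0.435 CPM, and Aplf, a histone-binding scaffold factor, 50.1 ± 1.98 and 49.8 ± 1.45 CPM. Dntt, the template-free polymerase of lymphocytes, was the 1 gene not tested, with 3, 0 and 0 counts in Ground and 1, 3 and 2 in Space, at or under the floor of 3 counts per library.

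No gene of the competing repair routes passed either. Of 9 alternative end joining genes 0 passed (median log2 fold change -0.013), from Mre11a (-0.036) and Nbn (-0.034) to Lig3 (0.045) and Rad50 (0.059). The products of Mre11a, Nbn and Rad50 are subunits of the same break sensor and nuclease complex. Of 15 homologous recombination genes 0 passed (median -0.021), from -0.18 (SE 0.12) for Rad52, an annealing protein, to 0.095 (SE 0.23) for Rad51b and 0.11 (SE 0.11) for Rad51d. Median levels per length were 7.30 CPM per kb in the NHEJ members, 8.25 in the 14 tested accessory genes with a known length, 21.6 in the alternative end joining list and 10.5 in the homologous recombination list, against 5.24 over all tested genes. These medians describe the lists, and no difference between lists was tested.

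Exons of 4 members overlap a gene on the opposite strand, by 2.66% of the exon length in Xrcc4 (Tmem167), 3.83% in Dclre1c (Suv39h2), 7.69% in Xrcc6 (Desi1) and 15.04% in Trp53bp1 (Tubgcp4). The kit is a stranded one and the strand setting of the counting was not stated, so some reads of these genes cannot be assigned with certainty. The exons of the other members overlap no annotated gene.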

How the data were processed

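Per the file headers, the deposited table holds raw counts per gene, with 1 column for each of 6 libraries. The authors trimmed reads with cutadapt and aligned them with HISAT2 to mm10, using GENCODE M21. The processing notes of the submitters also name HTSeq 2.0.2, HISAT2 2.2.1, cutadapt 4.1 and bcl2fastq 2.20. The strand setting and the treatment of reads shared between genes were not given in the sources used here, and labels and methods name different library kits and read layouts. Reads assigned to overlapping genes may therefore be missing or misplaced.

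The test was edgeR 4.0.16 (R 4.3.3) on the counts after filterByExpr and TMM scaling (quasi-likelihood F test, no replicate block, Benjamini-Hochberg over 15104 genes, threshold 0.05). SE is the size of the log2 fold change over the square root of F, and the prior count for log2 CPM was 2. CPM is the count relative to the TMM-scaled library size. Lengths came from GENCODE M21 (32235 of 32285 identifiers matched) and promoter windows from RefSeq (GRCm38.p6). Alternatives were other scalings and filters, DESeq2 1.42.0, limma-voom (limma 3.58.1), a replicate block, and leaving out each library.

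The members, lists and tests were chosen with earlier results of these data known. The named genes were all members, the accessory list, the extremes of 2 other lists and the 3 genes most like each of 2 members by profile; these lists hold 16, 9 and 15 genes, and some genes the rule selects are not reported here. Cyp11a1, Star, Etv5, Dazl, Fn1, Col5a1, Col1a2, Sparc and Twist1 were named after their values were seen.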

Additional observations from a re-analysis of the deposited data

How the results depend on the processing

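The count of members passing was 0, and that of all genes 0, with RLE scaling, total counts, scaling without mitochondrial genes, no filter, at least 10 counts in 3 libraries, limma-voom, DESeq2, the replicate block and a looser adjusted p of 0.10, and from 0 to 0 in the fits without 1 library, which had 64 to 161 genes at an unadjusted p under 0.05. Between libraries with the same replicate number, correlations of deviations from the group means were -0.54, 0.33 and -0.61 for numbers 1 to 3. By these correlations 2 of the 6 libraries (Ground-2 and Space-2) matched their own number best. Ground-1 and Space-3 matched each other best, as did Ground-3 and Space-1. The line of each library is not stated, so these values cannot settle whether libraries were paired. The block was fitted on the replicate numbers of the titles only. Under the replicate block the unadjusted p was below 0.05 for 63 genes and the adjusted p below the threshold for 0, and Xrcc4 turned to 0.0013.

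Of 140 member values under these alternatives 126 kept their direction, and none passed the threshold. Total counts, which moved the median of all genes from -0.0020 to 0.033, gave 0.0097 for Xrcc6 and 0.027 for Xrcc4, and limma-voom gave 0.0056 for Xrcc4. Without 1 library, log2 fold changes ranged from -0.0065 to 0.054 for Xrcc5, -0.084 to 0.023 for Xrcc6 (above 0 without Ground-3 or Space-3), -0.12 to 0.17 for Xrcc4, -0.022 to 0.069 for Trp53bp1, -0.16 to -0.041 for Prkdc, 0.083 to 0.25 for Lig4, -0.10 to -0.015 for Nhej1, 0.041 to 0.30 for Dclre1c, -0.11 to 0.17 for Poll and -0.033 to 0.19 for Polm. The medians ranged from -0.031 (without Space-1) to 0.12 (without Ground-3) for the members, -0.027 to 0.033 for the accessory list, -0.058 to 0.035 for alternative end joining and -0.064 to 0.028 for homologous recombination. The log2 ratio of Xrcc6 to Xrcc5 ranged from -0.079 to 0.0017 (without Ground-3) and that of Nhej1 to Xrcc4 from -0.19 to 0.032 (without Ground-2). Xrcc4 to Lig4 ranged from -0.20 to -0.078. The cause was not tested.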
